A study of Homo sapiens with 6 samples.

Results

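The ERBB receptor genes EGFR, ERBB2, ERBB3 and ERBB4 held 35 of the 72272 TLE3 regions that ChIP-seq, the sequencing of immunoprecipitated chromatin, found in 4 libraries. The study used MDA-MB-453, an established line of human breast cancer cells, immunoprecipitated with an antibody against TLE3. There were 2 libraries with transient silencing of FOXA1 by siRNA (siFOXA1 1 and 2), set against 2 without it (siNS 1 and 2), to learn how far TLE3 binding requires FOXA1. The sample titles do not spell out siNS. The name has the form of an siRNA, as siFOXA1 does, so these controls should not be taken for untreated cells. Both groups come from 1 cell line, 2 input libraries are labelled with the line name MDA-MB-454 and were not analysed here, and the lists hold no expression with which to check the cell type or the silencing. Each library has its own list of peaks on hg38, with a score per peak and no reads. Peaks of the 4 lists that share at least 1 bp were merged into regions. A region belonged to a receptor gene when it overlapped the gene's RefSeq span, or when that was the nearest protein-coding gene within 100 kb. This gave 16 regions at ERBB4, 10 at EGFR, 7 at ERBB2 and 2 at ERBB3.

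The ERBB receptors are membrane tyrosine kinases that pair with each other when a ligand binds and signal through the RAS-ERK and PI3K pathways. EGFR binds EGF-like ligands. ERBB2 (HER2) has no known ligand of its own and is the favoured partner of the others. ERBB3 binds neuregulins, has a weak kinase and recruits PI3K. ERBB4 binds neuregulins and some EGF-like ligands and is known for roles in mammary differentiation. MDA-MB-453 is often described as a luminal line with extra copies of ERBB2 and no oestrogen receptor. TLE3 is a Groucho-type corepressor that reaches DNA through partner factors, and FOXA1 is a forkhead protein that can bind closed chromatin and opens it for other factors.

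The 5' ends of EGFR, ERBB2 and ERBB4 are shown because a region with peaks of both siNS libraries, and of neither siFOXA1 library, lay on each. RefSeq start-site sequences were found for 3 of the 4 genes, with 4 start sites in all. The sequences run 5′ to 3′ on the gene's strand of GRCh38.p14 and end 1 base before the start site. EGFR (chr7:55018767-55019016, plus strand) and ERBB4 (chr2:212538803-212539052, minus strand) have 250 bases each. For ERBB2 (chr17:39688058-39688093, plus strand) only the 36 bases between its span and that of PGAP3 are given. Capitals mark matches to the motifs searched.
EGFR: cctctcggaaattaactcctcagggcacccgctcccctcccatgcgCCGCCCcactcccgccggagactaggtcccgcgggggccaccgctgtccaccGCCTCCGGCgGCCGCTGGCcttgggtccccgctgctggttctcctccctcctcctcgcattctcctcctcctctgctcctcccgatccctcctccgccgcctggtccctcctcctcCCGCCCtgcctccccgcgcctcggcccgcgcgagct
ERBB2: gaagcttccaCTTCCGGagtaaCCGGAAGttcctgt
ERBB4: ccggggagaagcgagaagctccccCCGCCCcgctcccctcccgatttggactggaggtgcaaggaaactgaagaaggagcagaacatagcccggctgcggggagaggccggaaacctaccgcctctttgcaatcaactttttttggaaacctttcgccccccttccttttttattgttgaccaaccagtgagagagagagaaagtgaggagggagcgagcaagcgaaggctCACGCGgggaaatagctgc

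None of the 3 sequences held the forkhead letters TGTTTAC or TATTTAC on either strand, nor did the full 250 bases before the ERBB2 start site. Those letters were in 5.27% of all 35116 start-site windows of 250 bases, in 2.85% of the windows with a siNS consensus region and in 7.80% of those with a siFOXA1 consensus region. The EGFR window held the AP-2 letters GCCNNNGGC at -152 and -142 (first base, counted from the start site) and the GC box GGGCGG, read on the other strand, at -204 and -36. AP-2 letters were in 19.8% and GC boxes in 42.6% of all windows. In windows with a siNS consensus region, like those shown here, the shares were 31.7% and 72.7%. The ERBB2 sequence held the ETS letters CCGGAAG at -14 and their complement at -26. These letters were in 8.52% of all windows and in 15.3% of those with a siNS consensus region. Windows have 250 bases, against the 36 shown for ERBB2. The full 250 bases before its start site also held ATTGG, the CCAAT box read on the other strand, at -243. CCAAT boxes were in 32.0% of all windows and in 31.1% of those with a siNS consensus region. The ERBB4 window held a GC box at -226 and the letters CACGCG, bound by HES repressors, at -19. CACGCG was in 9.72% of all windows and in 17.8% of those with a siNS consensus region. GC content of the 250 bases was 73.6% for EGFR, 65.6% for ERBB2 and 57.2% for ERBB4, against medians of 62% over windows with a siFOXA1 consensus region, 67.6% over those with a siNS consensus region and 58% over all.

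Fewer TLE3 peaks lay at the receptor genes after FOXA1 silencing, and those that did lay mostly in ERBB4. The 4 genes had 6 peaks in siFOXA1 1 and 11 in siFOXA1 2, against 22 in siNS 1 and 21 in siNS 2. The means were 8.50 ± 3.54 in siFOXA1 and 21.5 ± 0.707 in siNS (SD, n = 2 each), and the groups did not overlap. A two-sided exact permutation test over 6 relabelings gave p = 0.33, the smallest value that 2 against 2 libraries allow, so no comparison here can pass 0.05. The lists themselves differ in length, with 12249 and 13754 peaks used in siFOXA1 against 45105 and 46586 in siNS. Relative to the length of its list, the number was 0.490 and 0.80 per 1000 peaks in siFOXA1, against 0.488 and 0.451 in siNS. The lowest siFOXA1 library and the highest siNS library were almost level, and with lists cut to equal length the means were 7.50 peaks in siFOXA1 and 5 in siNS, so the lower sum in siFOXA1 depends on the length of its lists. With equal lists the mean was 6 in siFOXA1 and 0.50 in siNS at ERBB4, and 0.50 and 0 at EGFR, but 1 and 3.50 at ERBB2, and 0 and 1 at ERBB3. That cut keeps the weak peaks of the shortest siFOXA1 list and only the strongest of siNS. When each list was instead cut at its own median score, ERBB4 had means of 2.50 in siFOXA1 and 4 in siNS.

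Relative to list length, ERBB4 had more peaks in siFOXA1 and the other 3 genes together had fewer. ERBB4 had 5 and 9 peaks in siFOXA1 and 7 and 5 in siNS, numbers that overlap (exact permutation test, p = 1.000). Per 1000 peaks of the list it had 0.408 and 0.654 in siFOXA1, against 0.155 and 0.107 in siNS. EGFR, ERBB2 and ERBB3 together had 0.0816 and 0.145 per 1000 in siFOXA1, against 0.33 and 0.343 in siNS. Each of these per-list values was separated between the groups by more than the spread between replicates, with exact permutation p = 0.33. The means were 0.531 ± 0.174 in siFOXA1 and 0.131 ± 0.0338 in siNS at ERBB4, and 0.114 ± 0.0451 and 0.338 ± 0.00770 at the other 3 genes (SD, n = 2 each). The ERBB4 difference of 0.40 was 0.208 without peaks under the median score and 0.0623 when regions went to the gene with the nearest end (exact permutation p = 0.667), which drops the regions far inside ERBB4. ERBB4 took 83.3% and 81.8% of the receptor peaks in siFOXA1, against 31.8% and 23.8% in siNS. The peaks of the 4 genes covered 2554 and 4448 bp in siFOXA1, against 15658 and 15120 bp in siNS, which is 546 and 823 bp, against 568 and 560 bp, for each Mb covered by the whole list. Their median width was 406 and 300 bp in siFOXA1, against 448 and 423 bp in siNS, and over whole lists it was 336 and 347 bp, against 419 and 446 bp.

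**Figure D1:**
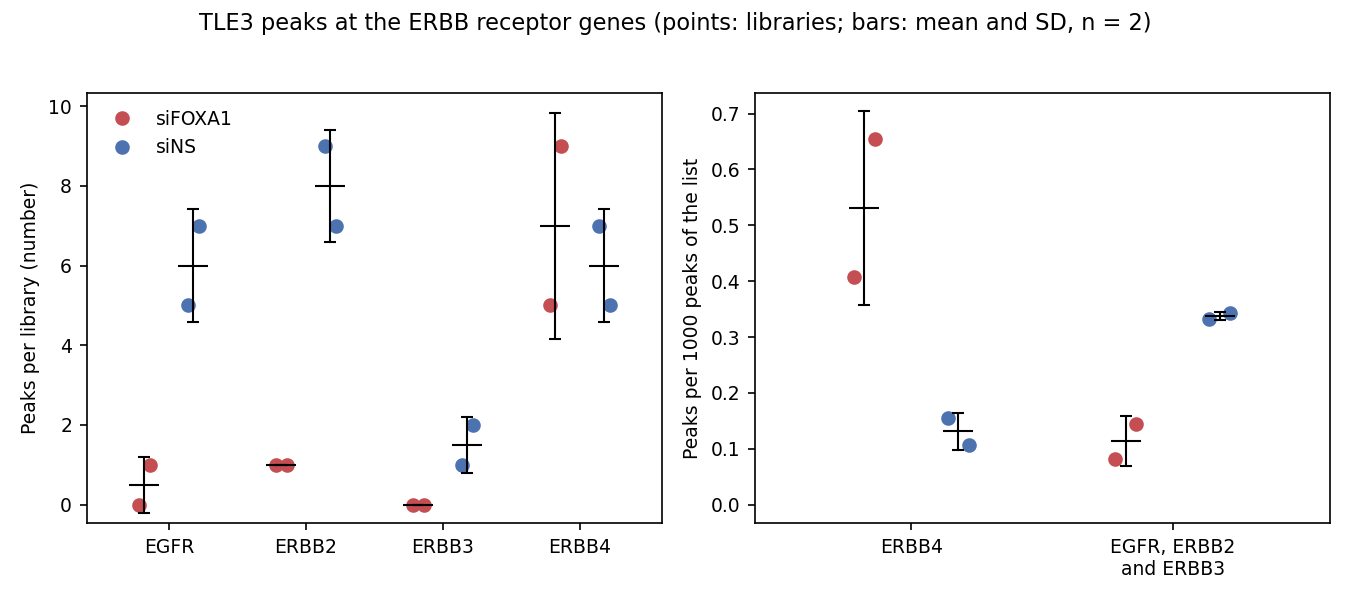
Number of TLE3 peaks at each receptor gene (left) and per 1000 peaks of the library's list (right). Points are libraries and black bars the mean and SD (n = 2 per group). The siFOXA1 points lie below the siNS points at EGFR, ERBB2 and ERBB3 and overlap them at ERBB4, while per 1000 peaks ERBB4 is higher in siFOXA1 (0.408 and 0.654, against 0.155 and 0.107).

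Of the 35 regions, 10 were siNS-only (a peak in both siNS libraries and no siFOXA1 peak), 1 was common to all 4 libraries and 3 were siFOXA1-only. Over all merged regions these classes held 28.7%, 3.60% and 4.54%. The siNS-only regions were 4 at ERBB2, 3 at EGFR, 2 at ERBB4 and 1 at ERBB3. The common region was in ERBB2, and the 3 siFOXA1-only regions were all inside ERBB4. Another 2 regions, both in ERBB4, had peaks in 3 libraries. The last 19 were found in 1 library each, 6 in a siFOXA1 and 13 in a siNS library, and were 231 to 511 bp wide. Replicates shared part of their regions: 5 of the 6 with a siFOXA1 1 peak had one of siFOXA1 2 (83.3%, against 67.9% over all regions), and 5 of the 11 with a siFOXA1 2 peak had one of siFOXA1 1 (45.5%, against 60.2%). In siNS, 12 of 19 were shared in either direction (63.2%, against 56.9% and 56.7%).

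Too few control regions lay at the receptor genes to tell whether they were kept more or less often than over the genome. Of 12 siNS consensus regions (a peak of both siNS libraries), 2 also held a siFOXA1 peak, which is 16.7% (exact 95% binomial interval 2.09 to 48.4%, counting error only). Over all 24967 siNS consensus regions the share was 17%. It ran from 58.3% in the strongest 10% of them to 3.53% in the weakest 10%, and strength was not matched here. The kept regions were 1 of 5 at ERBB2 and 1 of 3 at ERBB4, with none of 3 at EGFR and none of 1 at ERBB3. Each of the 4 genes had a siNS consensus region, as did 66.6% of the 20037 protein-coding genes, and 2 of them, ERBB2 and ERBB4, had a siFOXA1 consensus region, as did 19.7%.

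A siNS consensus region covered the 5' end of each of the 4 receptor genes, and no siFOXA1 peak did. Among the 22199 start-site windows of protein-coding genes, 50.2% overlapped a siNS consensus region and 1.22% a siFOXA1 consensus region. The second EGFR start site in RefSeq, at position 55109839 inside the gene, had no region and a GC content of 38.8%.

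**Figure D2:**
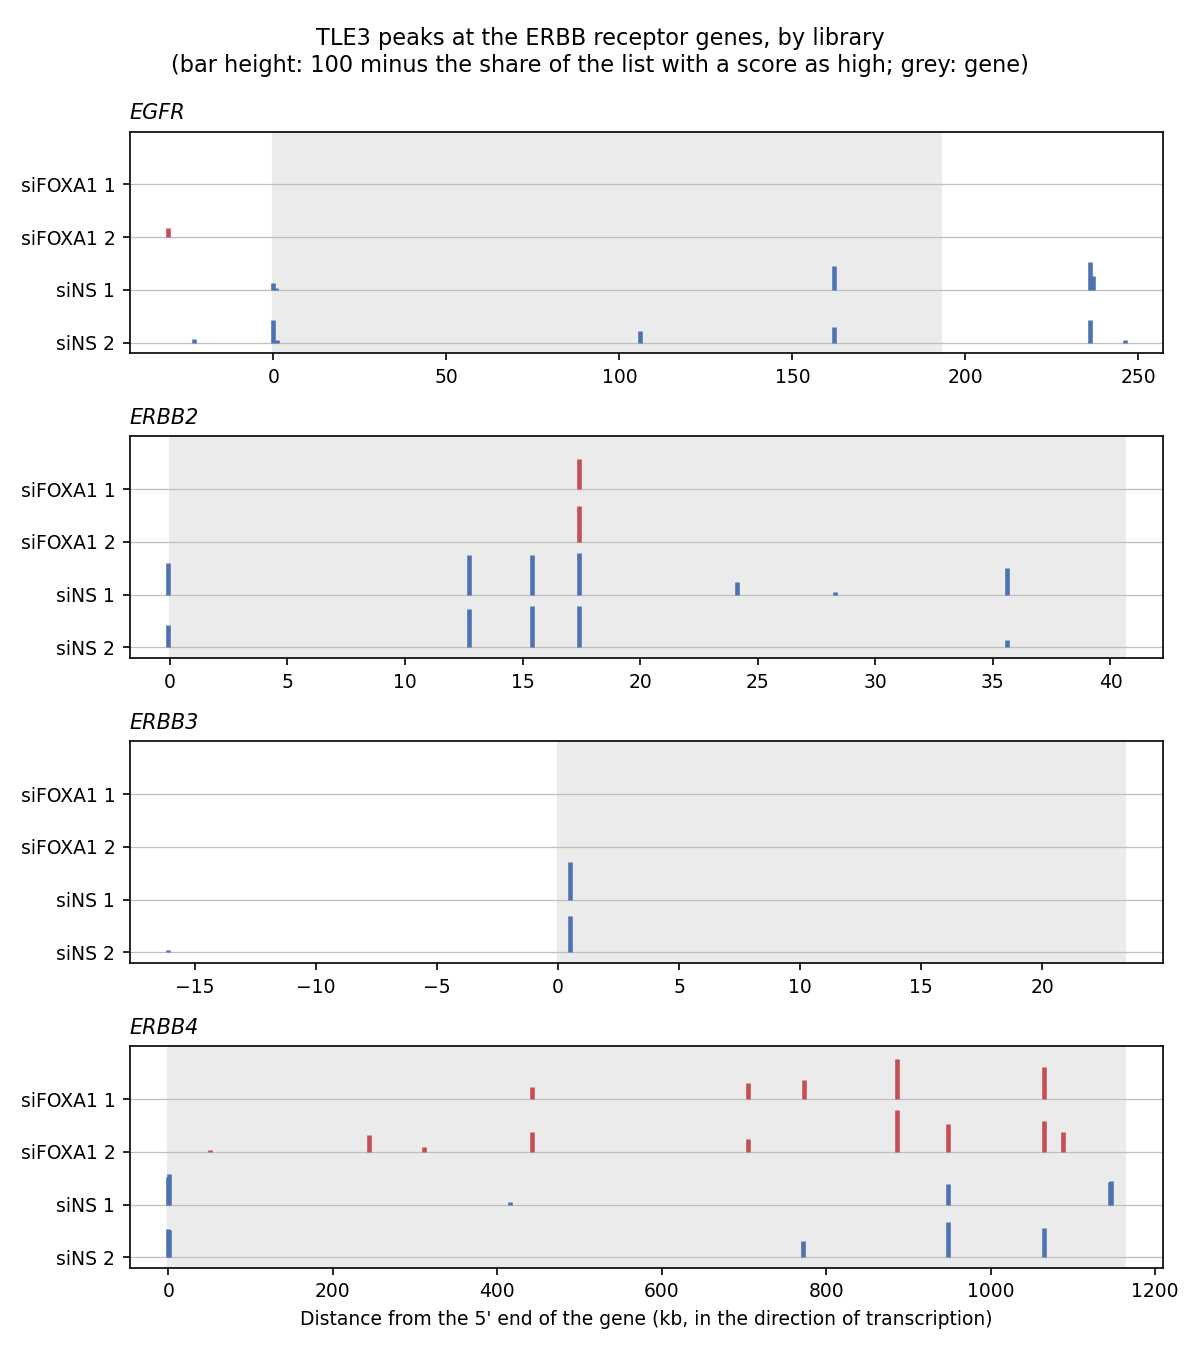
TLE3 peaks along each receptor gene, with one row per library and the distance of the region's middle from the 5' end of the gene in kb on the x axis. Bar height is 100 minus the percentage of the list with a score as high, grey marks the gene, and only siNS rows have bars at 0 kb. In ERBB4 the siFOXA1 bars are spread from 50.3 to 1088 kb into the gene, and siNS bars lie near the 5' end and from 416 to 1146 kb.

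In the siNS lists, ERBB2 carried the strongest TLE3 regions of the family, while in the siFOXA1 lists the region 886 kb into ERBB4 ranked higher than any at ERBB2. The gene (chromosome 17, 39688094 to 39728658) had 1 peak in each siFOXA1 library, against 9 in siNS 1 and 7 in siNS 2 (mean 1 ± 0 and 8 ± 1.41, SD, n = 2 each). The strongest region (39704369 to 39706694) lay 17.4 kb into the span. Its best scores were 14.9 and 26.7 in siFOXA1, against 195 and 218 in siNS. These are ranks 3509 of 12249 and 1934 of 13754 in siFOXA1 (the top 28.6% and 14.1%), against 444 of 45105 and 356 of 46586 in siNS (the top 0.984% and 0.764%). The score's definition is not stated, and ranks from lists of such different length do not measure a change. The number of ERBB2 copies was not measured here and was not tested as a reason for the high siNS ranks. Among the listed genes beside ERBB2, PGAP3 and PPP1R1B had siNS peaks that ranked higher in both libraries. GRB7 had one in siNS 1 only, and the other listed neighbours had none. The siFOXA1 peaks, 441 and 422 bp wide, both began at 39705809 and lay inside the stronger siNS peak of each library, which was 1521 bp wide in siNS 1 and 1137 bp in siNS 2. A weaker siNS peak of each library in the same region was not overlapped by a siFOXA1 peak. The siFOXA1 peaks at ERBB2 thus lay on one narrow stretch of a broad siNS region.

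The regions next to it had no siFOXA1 peak although they ranked high in siNS. One of 1366 bp (39702800 to 39704165), 203 bases from the kept region, was in the top 4.85% of siNS 1 and the top 2.17% of siNS 2. Another of 2410 bp (39699583 to 39701992) was in the top 6.37% and 8.0%, and 2.59% of siNS consensus regions were as wide. With the kept region these 3 lay 12.7 to 17.4 kb into the span and were among the strongest 10% of siNS consensus regions by mean rank. Of those strongest 10%, 58.3% were kept over the genome. The canonical ERBB2 transcript is known to start within these 3 regions' stretch of the gene rather than at the first base of the span, and RefSeq's start-site table lists only the first base. The region on that first base (39687781 to 39688256) was in the top 24.8% and 46.0% of the siNS lists. It also overlaps the start of PGAP3, a gene of GPI-anchor processing read from the other strand, and can be counted for either gene. Another control region near the 3' end (39723385 to 39724000) was in the top 36.6% and 81.5%. The other 2 regions of ERBB2 were in siNS 1 only.

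ERBB3 had the widest TLE3 region of the family. The gene (chromosome 12, 56080108 to 56103505) had no siFOXA1 peak, and 1 and 2 peaks in siNS. The region at its 5' end (56078938 to 56082237) was 3300 bp wide, against a median of 838 bp over siNS consensus regions, of which 0.597% were as wide. It was a single peak of 3186 bp in siNS 1 (score 51.5, top 11.2%) and of 3278 bp in siNS 2 (score 40.0, top 14.8%). The nearest siFOXA1 peak was 49545 bp away. Of siNS consensus regions in the next 10% by strength, where this one lay, 26.9% were kept. The other region, 15990 bp upstream, was in siNS 2 only, in the top 95.1%.

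EGFR had only weak regions. The gene (chromosome 7, 55019017 to 55211628) had 0 and 1 peaks in siFOXA1 and 5 and 7 in siNS. The region on its start site (55018800 to 55019235) scored 5.08 in siNS 1 (top 83.3%) and 12.7 in siNS 2 (top 47.1%). A region inside the gene, 162 kb from the start (55181173 to 55181650), was in the top 43.9% and 63.9%. The strongest lay 42890 bp beyond the 3' end (55254518 to 55255487), in the top 35.1% and 46.8%. Of all siNS consensus regions, 61.4 to 89.1% were as strong as these 3. The other 7 regions were in 1 library each. The 1 siFOXA1 peak, 30229 bp upstream, was in the top 79.1% of its list, and the 6 siNS ones in the top 68.2 to 97.3%.

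ERBB4 had TLE3 peaks deep inside the gene in both groups, and 3 regions there were siFOXA1-only. The gene (chromosome 2, 211375717 to 212538802, minus strand) is 1163 kb long, and all 16 regions overlapped it. The strongest siFOXA1-only region lay 886 kb into the gene (211652271 to 211652910). It scored 48.8 in siFOXA1 1 (rank 506, top 4.13%) and 81.4 in siFOXA1 2 (rank 278, top 2.02%), and no siNS peak lay within 61463 bp. Of the 8205 siFOXA1 consensus regions, 4.59% ranked as high. The other siFOXA1-only regions were weaker. One 705 kb into the gene (211833563 to 211833836) was in the top 61.9% and 70.2%, and one at 442 kb (212096908 to 212097221) in the top 71.1% and 53.5%. Their nearest siNS peaks were 66602 and 25899 bp away. When the weaker peaks of each list, those under its median score, were left out, ERBB4 had 1 siFOXA1-only region. Without siFOXA1 1 it had 7, since a peak of 1 library then sufficed.

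A pair of ERBB4 regions was shared between the groups in 3 libraries. The region at 1065 kb (211473103 to 211473881) was in the top 23.7% and 26.7% of the siFOXA1 lists and the top 31.5% of siNS 2, with no peak in siNS 1. The region at 948 kb (211590170 to 211590808) was in the top 34.8% of siFOXA1 2, with no peak in siFOXA1 1, and in the top 52.3% of siNS 1 and 16.7% of siNS 2. Near the 5' end the pattern was the reverse. The region on the start site (212538533 to 212539549, 1017 bp) was in the top 35.2% and 32.3% of the siNS lists. The one 1.37 kb into the gene (212536710 to 212538163, 1454 bp) was in the top 28.7% and 36.2%. The nearest siFOXA1 peaks were 49919 and 48096 bp away. The 9 ERBB4 regions of 1 library were 5 in siFOXA1, in the top 53.5 to 94.9%, and 4 in siNS, in the top 44 to 94.4%. The siFOXA1 ones lay 50.3 to 1088 kb into the gene and the siNS ones 416 to 1146 kb, so the farthest regions from the 5' end, at 1145 and 1146 kb, were in siNS 1 only.

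**Figure D3:**
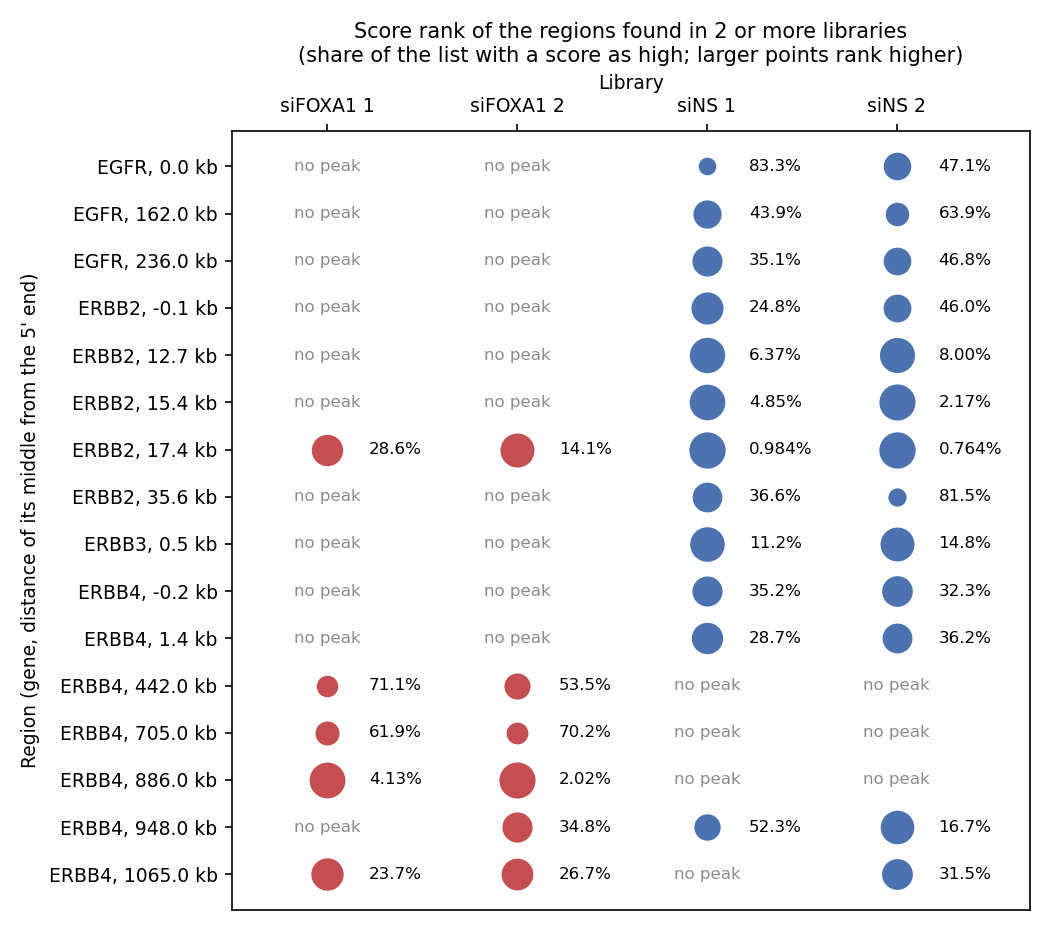
Score rank of the 16 receptor regions found in 2 or more libraries. Rows are regions by gene and distance of their middle from the 5' end, columns are libraries, and the number beside each point is the percentage of that list with a score as high. Only the ERBB2 row at 17.4 kb is filled in all 4 libraries, and the ERBB4 rows at 442, 705 and 886 kb are filled in siFOXA1 alone.

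ERBB4 lay within the range of other genes of 1000 kb or more. Of 69 such protein-coding genes, ERBB4 among them, 26 (37.7%) had at least 3 siFOXA1-only regions inside them, with a median of 1 and a maximum of 10. They run up to 2474 kb, and the maximum was in MACROD2, of 2058 kb. The 37.7% is thus not a share among genes matched to the length of ERBB4. The 68 others together had 28.5 and 29.2 peaks per 1000 in the siFOXA1 lists, against 7.09 and 10.3 in the siNS lists (28.8 ± 0.469 and 8.72 ± 2.30, SD, n = 2 each, exact permutation p = 0.33), and 57 of the 68 had a higher share of the siFOXA1 lists. They held 4.36% of all siFOXA1-only and 0.598% of all siNS-only regions. On siNS consensus regions ERBB4 had 3, against a median of 1, and 84.1% of these genes had at most 3.

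**Figure D4:**
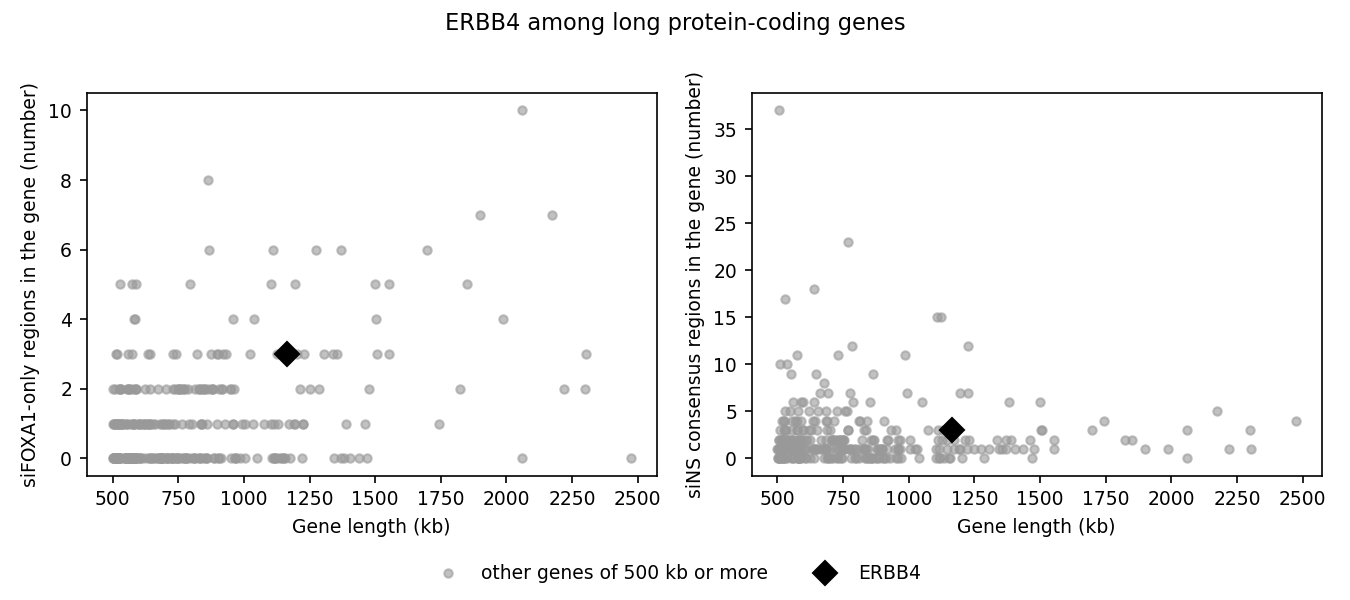
Number of siFOXA1-only regions (left) and siNS consensus regions (right) inside each of 315 protein-coding genes of 500 kb or more, against gene length in kb. ERBB4 (black diamond, 1163 kb) has 3 of each and lies among the grey points of genes of like length.

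Windows centred on the 4 genes differed in how many peaks they held. Within 500 kb either side of the middle of ERBB2 lay 12 and 14 siFOXA1 peaks, against 77 and 62 siNS peaks. The medians over all protein-coding genes were 4 and 4 in siFOXA1 and 23 and 25 in siNS. As many were found around 4.15% and 2.67% of genes in siFOXA1 and 11.5% and 10.8% in siNS. Gene density and the number of ERBB2 copies, which these lists do not measure, were not tested as reasons. The same window held 3 and 5 siFOXA1 peaks against 57 and 49 siNS peaks at ERBB3, and 2 and 4 against 17 and 18 at EGFR. For ERBB3, 69.2% and 46.9% of genes had as many in siFOXA1, and 21.4% and 20.5% in siNS. For EGFR these shares were 82.0% and 59.8% in siFOXA1, and 59.5% and 63.6% in siNS. ERBB4 is 1163 kb long, so its window lay wholly inside the gene and left out both gene ends. It held 5 and 7 siFOXA1 peaks against 2 and 3 siNS peaks. Of all genes, 44.4% and 28.5% had as many siFOXA1 peaks, and 97.0% and 96.8% as many siNS peaks. The siNS regions near the 5' end and those farthest from it fell outside this window. Over the whole gene the numbers were 5 and 9 in siFOXA1 against 7 and 5 in siNS, so the window does not describe the surroundings of ERBB4.

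The assignment rule set the edges of each gene's territory. The member farthest from its gene lay 53760 bp beyond EGFR, and the nearest region not counted there 153801 bp beyond it, at LANCL2. Just beyond ERBB2, 321 bp away, a region of both siNS libraries went to MIEN1, and 393 bp beyond ERBB3 one of both siNS libraries went to PA2G4. At ERBB4 the nearest regions not counted were 193438 and 227999 bp away and had no protein-coding gene within 100 kb. Both had peaks of both siFOXA1 libraries, the first also one of siNS 2.

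Genes of the ligands had siFOXA1 consensus regions in 6 of 11 cases (54.5%, against 19.7% of protein-coding genes) and siNS consensus regions in 7 of 11 (63.6%, against 66.6%). The neuregulin gene NRG3, whose product binds ERBB4, had 8 siFOXA1 consensus regions, 6 of them siFOXA1-only, and 3 siNS consensus regions, of which 1 was kept. NRG3 spans 1112 kb, about the length of ERBB4. Its best peaks were in the top 1.16% and 1.03% of the siFOXA1 lists, against the top 14% and 8.63% of the siNS lists. The EGFR ligand genes AREG and BTC had 2 siFOXA1 consensus regions and 1 siNS consensus region each, with none kept. TGFA, which also encodes an EGFR ligand, had 1 siFOXA1 and 4 siNS consensus regions with 2 kept, and NRG2 had 1 and 3 with 1 kept. The 11 genes had a median of 1 siFOXA1 and 1 siNS consensus region, against 0 and 1 over all genes, and 4 of their 15 siNS consensus regions were kept (26.7%, against 17% over all). Gene length was not matched in these counts.

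All 22 adaptor and regulator genes had a siNS consensus region, and 7 (31.8%) a siFOXA1 one, against 66.6% and 19.7% of protein-coding genes. GRB2, the adaptor that links the receptors to RAS, had 2 siFOXA1 and 6 siNS consensus regions, with 3 kept. PIK3R1, the regulatory subunit of PI3K, had 2 and 3, with none kept. LRIG1, which lowers ERBB receptor levels, had 1 and 3 with 1 kept, though its 1 siFOXA1 consensus region was siFOXA1-only. ADAM10, a protease that releases ligands, had 2 and 2. Both of its siNS consensus regions were kept, and 1 of its siFOXA1 ones was siFOXA1-only. Over the list, 9 of 44 siNS consensus regions were kept (20.5%, against 17% over all such regions).

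Of 14 genes beside ERBB2 on chromosome 17, 3 (21.4%) had a siFOXA1 and 10 (71.4%) a siNS consensus region, both shares near those of all protein-coding genes (19.7% and 66.6%). PGAP3 had 4 siNS consensus regions, 1 shared with ERBB2, and the best was in the top 0.0333% and 0.148% of the siNS lists. It had 1 region kept, through a siFOXA1 2 peak in the top 93.2%. PPP1R1B, a phosphatase inhibitor gene, had 1 siFOXA1 and 4 siNS consensus regions with 1 kept, and its best peaks were in the top 6.09% and 6.33% of the siFOXA1 lists, against 0.0621% and 0.318% of the siNS lists. STARD3, a cholesterol-binding protein gene, had no siFOXA1 and 3 siNS consensus regions. GRB7, an adaptor that binds ERBB2, had 2 of each, both kept, and IKZF3, a zinc finger factor gene, 1 of each with none kept. Over these genes 4 of 20 siNS consensus regions were kept (20%, against 17% over all). GRB7 is also counted among the adaptors.

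**Figure D5:**
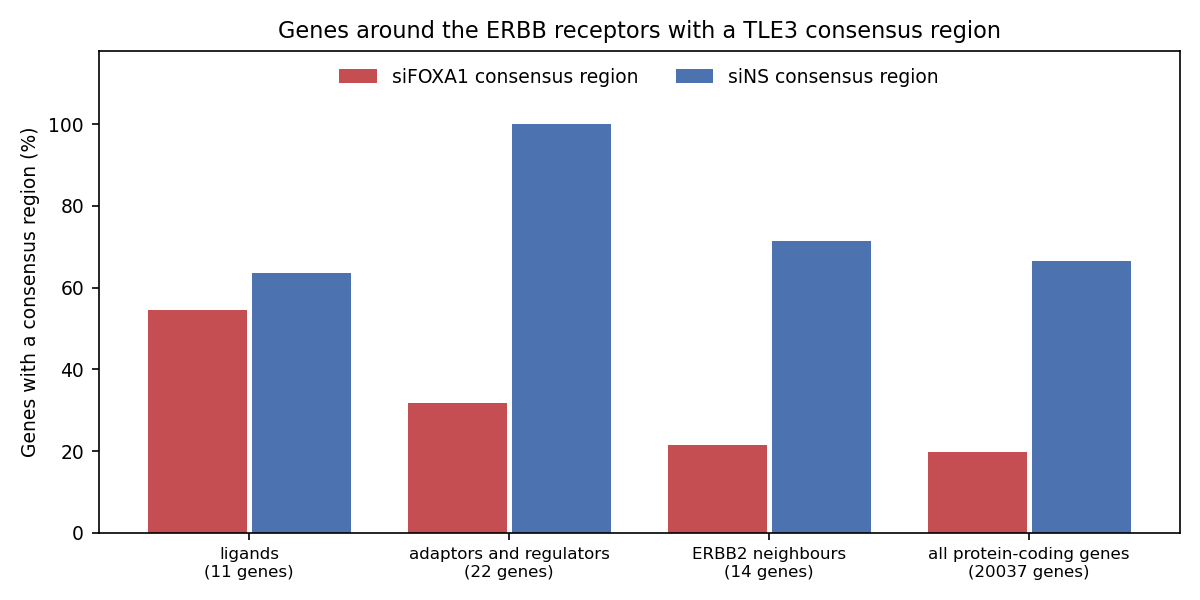
Percentage of genes with a siFOXA1 consensus region (red) and a siNS consensus region (blue) among ERBB ligands, adaptors and regulators, neighbours of ERBB2 and all protein-coding genes. The ligands have the highest siFOXA1 share (54.5%, against 19.7% over all genes) and the adaptors the highest siNS share (100%, against 66.6%).

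The genes most like each receptor in peak number were found by the distance between log2(number + 1) over the 4 libraries. EGFR shared its 4 numbers exactly with MAP1LC3B2 and SLC12A9, followed by CNNM2 (distance 0.17). ERBB2 shared them with CLDN14 and GRIK3, followed by LRRC56 (0.14). ERBB3 shared them with 924 genes, of which RNF212B, MOB4 and KANSL1L were closest by score rank. No gene had the numbers of ERBB4, and near it were SOX5 (0.30), with 5 and 8 peaks in siFOXA1 and 7 and 4 in siNS, and ADK (0.36), with 5 and 8 in siFOXA1 and 6 and 4 in siNS.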

How the data were processed

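TLE3 ChIP-seq peak lists of 2 siFOXA1 and 2 siNS libraries were used; groups and replicate numbers come from the sample titles, where the list of siFOXA1 2 carries another number in its name. The labels call the libraries biological replicates and say no more, so p-values measure only the spread between these samples. Cells were fixed with a protein crosslinker before formaldehyde, per the labels' protocols. The authors deposited 1 list per library with 5 columns and no header, and its last column is a score whose definition is not stated. Per the submitters' processing notes Trim Galore, BWA 0.7.5a, SAMtools and MACS2 were used on hg38; the sources used here give neither their settings nor whether inputs entered the calling. No list gives depth. Scores ranked peaks within a list only. The mitochondrial peaks, 3 to 9 per list, were left out.

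Regions, gene assignment, classes and ranks were computed with Python 3.11.15, numpy 2.4.6 and scipy 1.17.1, and figures drawn with matplotlib 3.10.9. Gene spans and start-site sequences are RefSeq's on GRCh38.p14. A region over several spans counts for each. Transcription direction came from the start-site table, for ERBB3 from general knowledge. Group means were compared by a two-sided exact permutation test. Code was tested on simulated lists and merged regions were checked against bedtools 2.31.1. The 4 genes, the gene lists and the tests were chosen with earlier results of these data known, the 10 motif families after the sequences were seen. From each gene list the text names the 3 genes with the most siFOXA1 and the 3 with the most siNS consensus regions (ties by best rank). 1 gene that the likeness rule names is not reported here. No genome sequence was used, so the regions away from start sites were not searched. Alternatives were a score threshold, lists of equal length, other overlaps, widened peaks, other assignments, each replicate left out, and 2 added after the data were seen: 1 gene per region, and leaving out ERBB4.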

Additional observations from a re-analysis of the deposited data

How the results depend on the processing

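The share of receptor siNS consensus regions kept stayed between 8.33 and 25% under every alternative run. The siFOXA1 minus siNS difference in peaks kept its sign except with lists of equal length, where it was 2.50 (means 7.50 and 5), so the lower sum in siFOXA1 depends on list length. The difference per 1000 listed peaks, 0.176, became -0.00715 with only the stronger peaks, those from the median score up, -0.0964 with the gene of the nearest end and -0.224 without ERBB4. It ranged from 0.0206 to 0.331 with a replicate left out. The 12 siNS consensus regions became 4 with lists of equal length and 12 to 22 with a replicate left out, when fewer libraries have to share a peak: 21 without siNS 1 and 22 without siNS 2. The 5 siFOXA1 consensus regions became 3 above the median score, 2 by the nearest end, 1 without ERBB4, and 5 to 11 with a replicate left out, 11 of them without siFOXA1 1. For single genes, the EGFR difference was 0.50 peaks (0.0408 per 1000) with lists of equal length, where ERBB2 (-2.50 peaks) and ERBB3 (-1) stayed lower in siFOXA1 and ERBB4 was 5.50 higher. The ERBB4 difference of 1 peak was -1.50 above the median score, -2 by the nearest end and -1 to 3 with a replicate left out, so it has no settled sign. Per 1000 peaks the ERBB4 difference, 0.40, was above 0 under all alternatives run on it, but was 0.208 above the median score and 0.0623 by the nearest end (exact permutation p = 0.667). With the nearest end, ERBB4 regions over 100 kb from either end are dropped, its 3 siFOXA1-only regions among them. Without siFOXA1 1 the gene had 7 siFOXA1-only regions. With a replicate block, relabeling within same-numbered pairs, the differences were the same, -13 and 0.176, with exact permutation p = 0.50, the smallest of 4 relabelings. Same-numbered libraries share only a number, and their deviations in peaks per gene had a correlation of 0.033 over 16724 genes. No list gives depth, so a region without a peak was not shown to lack TLE3.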

Other observations

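On chromosome 4 the ligand genes EPGN, EREG, AREG and BTC, a set singled out after its values were seen, lie between 74308470 and 74794523 and had 10 regions. They held 7 and 5 peaks in siFOXA1, against 2 and 4 in siNS, numbers not scaled to list length. Of the 10 regions 4 were siFOXA1-only, and both siNS consensus regions, at ends of AREG and BTC, were siNS-only. Over all merged regions these classes held 4.54% and 28.7%. Because the set was picked by its values, its shares cannot be read as a result about these genes. The strongest siFOXA1-only region (74307984 to 74308598) overlapped the low end of EPGN, which encodes epigen, in the top 3.27% of siFOXA1 1 and 1.69% of siFOXA1 2. No test was run on this set.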
